A study of Mus musculus with 6 samples.

Results

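Collagens were followed as a gene family: every gene symbol made of Col, a number, the letter a and a number, which is the usual form for a collagen chain. The rule found 44 such genes among the 31028 genes of the RNA files and 25 among the 8269 genes of the chromatin accessibility files. The samples were dissected pancreatic tissue of C57BL/6 mouse embryos in 6 libraries, 1 for each group. Wild-type embryos (Ptf1a+/+, WT below) were compared with embryos whose genotype the labels give as Ptf1aenh-delta/enh-delta (KO below), which lack an enhancer of Ptf1a on both chromosomes. Ptf1a encodes a transcription factor needed for the pancreas to form. At embryonic day 10.5 (E10.5) multipotent progenitor tissue was measured by single-cell RNA sequencing and, in other libraries, by single-cell ATAC sequencing, an assay in which a transposase cuts accessible DNA. Whole pancreas of embryonic day 13.5 (E13.5) was measured by single-cell ATAC sequencing only. Each dataset pooled 5 to 9 embryos at E10.5 and 6 embryos at E13.5, so that the difference between embryos is not measured. With 1 library per group no test between conditions was possible, and every difference given here is a difference between libraries. The intervals are 95% intervals for counting error alone. The E13.5 WT and KO barcodes name different months, and at that stage genotype and month cannot be told apart.

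Collagens are secreted or membrane proteins made of chains wound around each other. Fibrillar collagens such as types I, II, III, V and XI assemble into the cables of connective tissue and cartilage, whereas type IV forms the sheet-like network of basement membranes. FACIT collagens such as type IX sit on the surface of fibrils, multiplexins such as type XVIII belong to basement membranes, and the transmembrane collagens are held in the cell surface. In the embryonic pancreas, epithelial buds grow into a mesenchyme that makes much of the fibrillar matrix, and a basement membrane lies between the tissues.

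The family was sorted by structure into 11 fibrillar genes, 6 genes of collagen IV, 6 of the beaded-filament type VI, 9 FACIT genes, 3 short-chain genes, 2 multiplexins, 4 transmembrane genes and 3 others. Several members are neighbours in the genome. In the RefSeq annotation of GRCm38.p6, 8 pairs of members lay next to each other with gaps of at most 85.2 kb, and Col4a1 and Col4a2, the chains of the common basement membrane collagen, overlap by 85 bases on chromosome 8 between 11198423 and 11449287. Col3a1 and Col5a2 lie 24.6 kb apart on chromosome 1. Promoter windows were found for 35 of the 44 genes in the RefSeq table of that build. Col1a1, Col2a1, Col5a2, Col9a3, Col12a1, Col14a1, Col22a1, Col26a1 and Col4a3 had none.

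The 250 bases upstream of the transcript start are shown for 3 genes on which the results below turn: Col9a2 and Col11a2, whose RNA was found in endocrine-like cells or whose accessibility differed between stages, and Col1a2, whose RNA was found apart from that of its partner chain. The Col11a2 gene is annotated from position 34038919, so most of its window lies within the gene, before a transcript start further along. Capitals mark matches on either strand to 4 motifs. The TATA box was searched as TATAAA and the CCAAT box by the letters in its name. For the GC box the letters were GGGCGG. An E-box, which basic helix-loop-helix factors bind, was any match to CANNTG.
Col9a2, chr4:121039316-121039565, plus strand: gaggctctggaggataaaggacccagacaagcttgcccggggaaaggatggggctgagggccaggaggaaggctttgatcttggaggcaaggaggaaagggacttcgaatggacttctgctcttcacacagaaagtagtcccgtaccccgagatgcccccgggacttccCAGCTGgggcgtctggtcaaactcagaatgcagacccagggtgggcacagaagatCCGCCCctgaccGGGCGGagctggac
Col11a2, chr17:34038888-34039137, plus strand: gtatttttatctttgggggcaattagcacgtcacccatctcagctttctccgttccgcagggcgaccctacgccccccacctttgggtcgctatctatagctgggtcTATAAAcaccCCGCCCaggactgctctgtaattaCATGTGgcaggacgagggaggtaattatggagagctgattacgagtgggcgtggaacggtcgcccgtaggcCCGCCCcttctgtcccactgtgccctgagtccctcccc
Col1a2, chr6:4505368-4505617, plus strand: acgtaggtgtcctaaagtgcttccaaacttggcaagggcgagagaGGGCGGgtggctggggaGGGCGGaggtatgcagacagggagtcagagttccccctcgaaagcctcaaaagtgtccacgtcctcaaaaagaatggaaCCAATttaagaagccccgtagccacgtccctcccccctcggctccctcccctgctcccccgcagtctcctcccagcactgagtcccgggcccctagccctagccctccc

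The windows of Col9a2, Col11a2 and Col1a2 each held 2 GC boxes. That of Col9a2 also held the E-box CAGCTG, starting 81 bases before the transcript start, and that of Col11a2 held the E-box CATGTG and a TATA box. The Col1a2 window held a CCAAT box and no E-box. Among all 32851 windows of this length, 32.7% held a GC box, 66.2% an E-box, 33.8% a CCAAT box and 12.4% a TATA box. The form CAGCTG, which is a subset of the E-box, was found in 13% of all windows. Over the 38 windows of collagen genes a GC box was found in 22, an E-box in 19, a CCAAT box in 13 and a TATA box in 5. These matches describe letters and are no evidence that a factor binds.

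Of the barcodes, 451 of 1104 in WT and 369 of 815 in KO had at least 1000 detected genes and were used. Their median depth was 6700 UMIs (unique molecular identifiers, the counted RNA molecules) in WT and 9856 in KO, with 4106604 and 4011819 UMIs in all. Ptf1a, the gene whose enhancer was deleted, had 142 UMIs in the kept WT cells and 0 in the kept KO cells, where 3 counts would allow up to 0.748 counts per 1000000 UMIs (CPM). Collagens took 3191 UMIs in WT, 0.0777% of the library (exact interval 0.0750% to 0.0804%), and 4007 UMIs in KO, 0.0999% (0.0968% to 0.103%). A UMI was seen for 39 of the 44 members in each library. Col4a3, Col6a4, Col10a1 and Col28a1 had 0 UMIs in both. Only 19 members reached 50 UMIs over both libraries, and ratios between libraries were formed for these alone. The 8 members with the most UMIs held 73.1% of all collagen UMIs.

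Cells were clustered without the collagen genes, which gave 5 clusters. The listed genes that act on collagens and the tip and acinar markers, Ptf1a and Cpa1 among them, were also left out of the clustering. Cluster 0 (153 WT and 100 KO cells) was mesenchyme-like, with 9 of 14 mesenchyme markers raised by a log2 ratio above 1. It also had 5 of 8 endothelium markers raised, and its median depth was 2455 UMIs. Cluster 1 (67 WT and 139 KO cells) was endocrine-like, with all 12 endocrine markers raised. Cluster 2 (124 WT and 76 KO cells) had the highest mean of the progenitor markers. It was left without a name, since Hhex and Onecut1 of the hepatoblast and biliary list were among its 10 leading genes. Cluster 3 (87 WT and 19 KO cells) had no name either. Cluster 4 (20 WT and 35 KO cells) was mesenchyme-like, yet its endocrine markers summed to 10649 CPM in WT and 10865 CPM in KO, against 33716 and 27626 CPM in cluster 1. Its median depth of 20409 UMIs was the highest of the 5 clusters, against 10539.5 UMIs in cluster 1. Of its 55 cells, 3 were called doublets, against 5 of 206 in cluster 1. The part of mixed cells in its values was not tested. The thresholds for names were set with the clusters in view. The RNA libraries shared 1 cell barcode, and the ATAC libraries 0 at E10.5 and 2 at E13.5.

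Clusters 0 and 4 were the richest in collagen RNA of the 5, although within cluster 0 this held for the cells without a name described below and not for the Barx1-led ones. In cluster 0 the collagens summed to 1116 CPM in WT and 1297 CPM in KO, and in cluster 4 to 1237 and 1230 CPM. Cluster 1 had 795 and 999 CPM, cluster 2 had 618 and 795 CPM, and cluster 3 had 203 and 335 CPM. The order of the clusters was thus the same in both libraries apart from clusters 0 and 4, whose order differed. The classes differed between clusters. Fibrillar genes gave 55.5% of collagen UMIs in WT and 55.7% in KO in cluster 0, but 23.2% and 21.6% in cluster 1. They gave 54.5% and 44.1% in cluster 4 and 45.2% and 44.6% in cluster 2. FACIT genes gave 45.1% and 52.9% in cluster 1 against 4.92% and 5.56% in cluster 0. Collagen IV gave 26.2% and 29.0% in cluster 2, against 25.2% and 16.6% in cluster 1 and 15.6% and 13.6% in cluster 0. In CPM it stood at 162 and 231 in cluster 2 and at 200 and 166 in cluster 1.

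**Figure D1:**
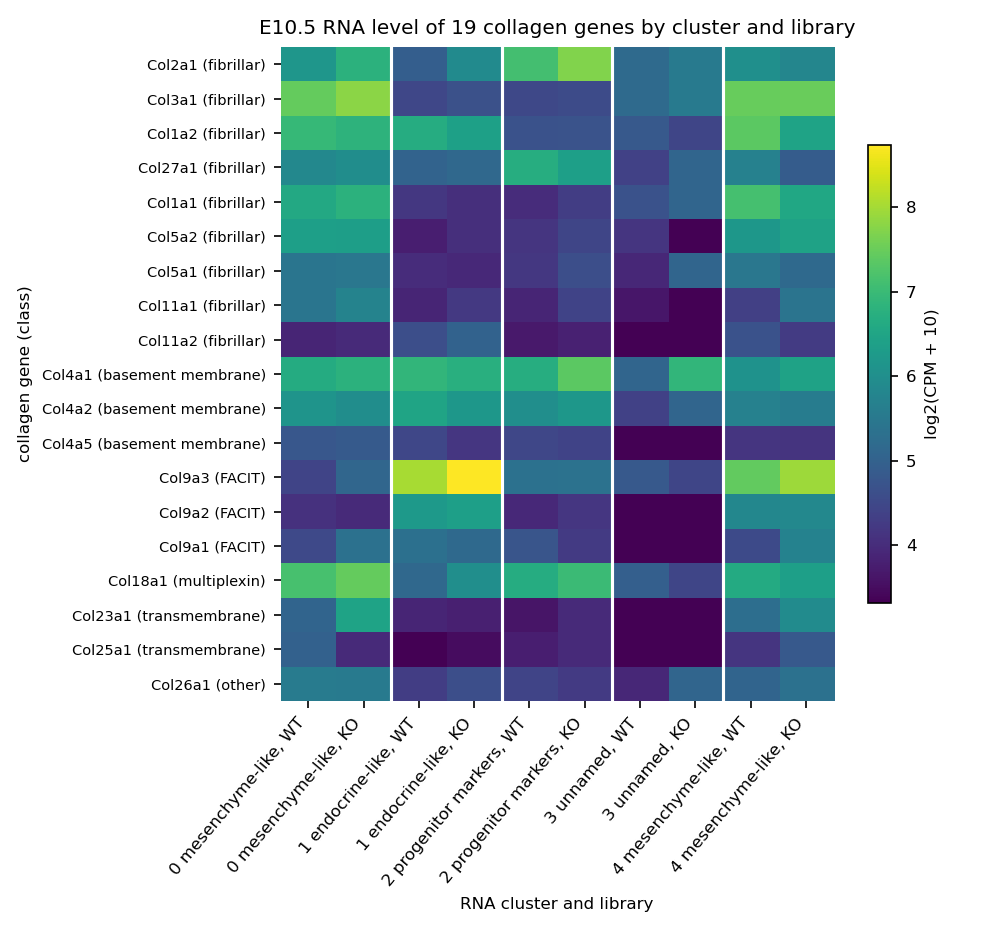
Heat map of the RNA level, as log2(CPM + 10), of the 19 collagen genes with at least 50 UMIs (rows, grouped by class) in each of the 5 clusters and 2 libraries (columns, 1 library per genotype, no error shown). Col9a3 is brightest in cluster 1, where it reached 250 CPM in WT and 415 CPM in KO, and Col3a1 and Col1a1 are bright in clusters 0 and 4.

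Among fibrillar genes, Col3a1, the single chain of type III collagen, was at 165 CPM (139 to 194) in WT and 210 CPM (173 to 253) in KO in cluster 0. It stood at 167 and 170 CPM in cluster 4 but at 12.1 and 15.3 CPM in cluster 1 and at 12.7 and 13.7 CPM in cluster 2. These intervals do not overlap between the mesenchyme-like clusters and the others. In cluster 0 a Col3a1 UMI was present in 42.5% of WT and 46.0% of KO cells, although these cells were shallow, against 11.9% and 12.2% in the deeper cluster 1. Col1a1, the main chain of type I collagen, was at 86.4 and 101 CPM in cluster 0 and at 131 and 82.8 CPM in cluster 4. Col5a2, a chain of the type V collagen that joins type I fibrils, was at 73.6 and 72.1 CPM in cluster 0 against 3.62 and 6.65 CPM in cluster 1 and 7.83 and 12.1 CPM in cluster 2.

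Compared with all other kept cells, 5 of the 19 measured members were higher by a log2 ratio of at least 1 in both libraries in cluster 0, where 1.67% of all genes were: Col1a1, Col3a1, Col5a2, Col11a1 and Col23a1. Col11a1 encodes a chain of the fibril-nucleating type XI collagen, and Col23a1 a transmembrane collagen. Col9a2 and Col9a3 were lower there, against 2.02% of all genes. In cluster 4 the higher members were Col1a1, Col3a1, Col5a2 and Col23a1 (0.309% of all genes), and 0 were lower (0.617%). Beside this, the progenitor markers of cluster 0 summed to 1185 CPM in WT and 1667 CPM in KO, against 3342 and 4061 CPM in cluster 2, and all 12 had a UMI. The part of other cells' RNA in these levels was not tested.

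At a finer clustering most of cluster 0 fell into a pair of clusters of nearly equal size. One (69 WT and 54 KO cells) had no name, and Plagl1, Fbn2 and Zeb2 were among its leading genes. Of its markers, 6 of 8 for endothelium and 6 of 14 for mesenchyme were raised by a log2 ratio above 1. This cluster carried the larger collagen load of 1444 CPM in WT and 1469 CPM in KO. In it Col3a1 was at 228 and 249 CPM and Col1a1 at 116 and 115 CPM. The other, led by Barx1 (78 WT and 44 KO cells), was mesenchyme-like, with 5 of 14 mesenchyme and 0 of 8 endothelium markers raised. It had 699 and 664 CPM of collagen, with Col3a1 at 97.1 and 58.9 CPM. The fibrillar RNA of cluster 0 thus came mostly from the cells without a name.

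Cluster 1, the endocrine-like cells, had a collagen set that differed from those of clusters 0 and 2. Col9a3, the alpha-3 chain of the cartilage-type collagen IX, had 207 UMIs in WT and 624 in KO there, or 250 CPM (217 to 286) and 415 CPM (383 to 449). In cluster 2 it stood at 30.7 CPM (22.9 to 40.4) and 31.3 CPM (22.3 to 42.8), and in cluster 0 at 10 and 13 UMIs. The intervals of clusters 1 and 2 are far apart in both libraries. A Col9a3 UMI was found in 71.6% of WT and 90.6% of KO cells of cluster 1, at median depths of 11717 and 10162 UMIs. In cluster 2, whose median depths were 12880.5 and 16037.5 UMIs, the shares were 29.8% and 28.9%. With every cell thinned to 2000 UMIs the shares were 30.3% and 52.2% in cluster 1 and 7.56% and 6.85% in cluster 2.

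The partner chain Col9a2 was at 66.3 CPM in WT and 73.1 CPM in KO in cluster 1, and had only 9 and 10 UMIs in cluster 2. Col9a1, which encodes the remaining chain of collagen IX, was at 30.1 and 25.9 CPM in cluster 1, 16.9 and 8.84 CPM in cluster 2 and 12.8 and 30.3 CPM in cluster 0, so that it did not separate the clusters. Col9a2 and Col9a3 were the 2 members higher by at least 1 in log2 in both libraries in cluster 1, where 4.45% of all genes were. Of the 206 cells of cluster 1, 86 had a UMI of both chains, 88 of Col9a3 only and 6 of Col9a2 only. Cluster 4 also held Col9a3, at 162 CPM in WT and 235 CPM in KO. Per 100 UMIs of the endocrine markers it had 1.52 and 2.16 Col9a3 UMIs in cluster 4, against 0.740 and 1.5 in cluster 1.

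Each of the 3 finer clusters that held most of cluster 1 carried Col9a3. It was at 328 CPM in WT and 476 CPM in KO in the cells led by Sct and Pyy, and at 256 and 485 CPM in those led by Neurog3, the endocrine commitment factor. In the hormone-rich cells led by Ghrl, Cartpt and Ins1 it was at 142 and 351 CPM. Col9a2 was at 84.4 and 96.5 CPM, 85.3 and 85.5 CPM, and 26.3 and 38.4 CPM in the same order. Col4a1 ran the other way, with 87.0 and 61.0 CPM, 68.2 and 64.1 CPM, and 163 and 164 CPM.

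In the other direction, 4 fibrillar members were lower in cluster 1 by at least 1 in log2 in both libraries, namely Col1a1, Col2a1, Col3a1 and Col5a2, against 3.66% of all genes. Col1a2, the partner chain of type I collagen, was not among them. It stood at 91.6 CPM (72.2 to 115) in WT and 74.5 CPM (61.3 to 89.6) in KO in cluster 1, close to its 113 and 102 CPM in cluster 0, and at 15.7 and 16.1 CPM in cluster 2. At the finer clustering Col1a2 was at 71.6 and 93.1 CPM in the Sct-led cells and 84.1 and 81.9 CPM in the hormone-rich cells, but had only 1 and 5 UMIs in the Neurog3-led cells. A further 20 cells of cluster 1 joined those of cluster 4 in a finer mesenchyme-like cluster, where Col1a2 was at 173 and 83.8 CPM. RNA of the 2 type I chains was found apart in endocrine-like cells. There were 9.21 Col1a1 UMIs per 100 Col1a2 UMIs in WT (3.58 to 19.9) and 8.93 in KO (4.17 to 17.0), from 7 and 10 Col1a1 UMIs. The same figure was 76.3 and 98.1 in cluster 0, 84.7 and 106 in cluster 4, and 38.5 and 60.0 in cluster 2. Of the 206 cells in cluster 1, 75 had Col1a2 only, 5 Col1a1 only and 9 both. Counts at the 3′ end do not scale with transcript length, but capture can differ between genes, so the ratio was compared between clusters and not read as a ratio of chains.

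**Figure D2:**
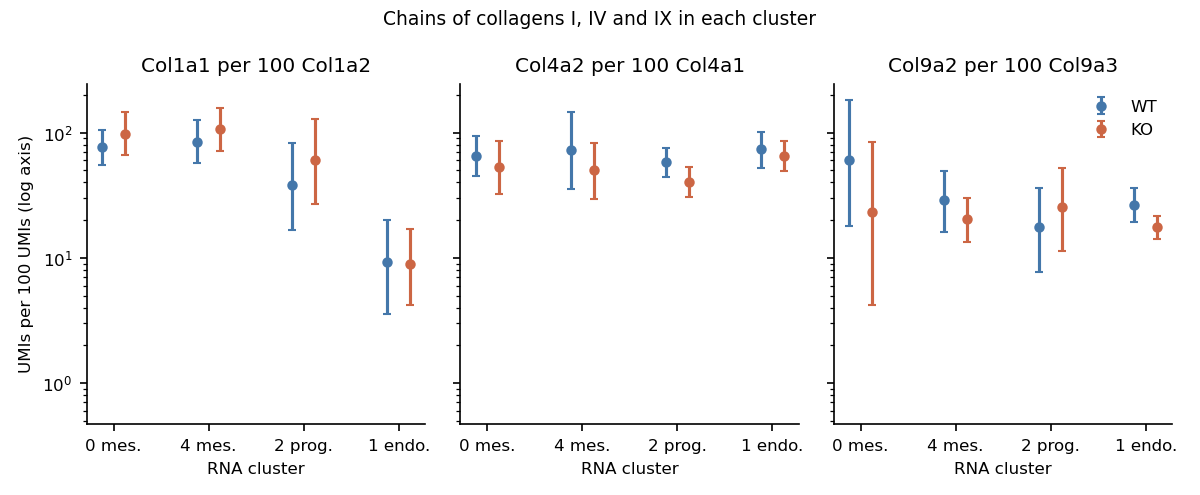
UMIs of 1 chain per 100 UMIs of its partner (log axis) for collagens I, IV and IX in 4 RNA clusters (0 and 4 mesenchyme-like, 2 with progenitor markers, 1 endocrine-like). Points are single libraries (WT blue, KO orange) and bars are exact 95% counting intervals; Col1a1 per 100 Col1a2 is 9.21 and 8.93 in cluster 1, while Col4a2 per 100 Col4a1 lies between 40.6 and 73.3 in these clusters.

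Col4a1 and Col4a2, which pair in the basement membrane and start next to each other in the genome, were detected in all clusters. Col4a1 was at 91.1 and 101 CPM in cluster 0, 109 and 95.7 CPM in cluster 1, 92.8 and 154 CPM in cluster 2, and 57.5 and 76.7 CPM in cluster 4. Col4a2 per 100 Col4a1 lay between 40.6 and 73.3 in these 4 clusters and both libraries. Both chains were seen together in 75 of the 200 cells of cluster 2 and in 57 of the 206 cells of cluster 1. Col4a5, a chain of another collagen IV network, reached 48 and 41 UMIs over all kept cells. Col4a6 had 9 and 5 UMIs and Col4a4 had 3 and 0.

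Cluster 2 had another pattern. Col2a1, the chain of the cartilage fibril collagen II, was its highest member, at 128 CPM (112 to 147) in WT and 200 CPM (176 to 227) in KO. It was at 61.9 and 101 CPM in cluster 0 and at 20.5 and 49.9 CPM in cluster 1. Col27a1, another fibrillar collagen, was at 92.8 and 73.1 CPM in cluster 2 against 22.9 and 25.3 CPM in cluster 1. These 2 members were higher in cluster 2 by at least 1 in log2 in both libraries, against 0.627% of all genes. There, 6 members were lower, against 3.16%: Col1a1, Col1a2, Col3a1, Col5a2, Col9a2 and Col9a3. Col18a1, whose product carries the endostatin domain, was at 91.6 and 120 CPM in cluster 2, 133 and 165 CPM in cluster 0 and 25.3 and 53.9 CPM in cluster 1.

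In the shallow cluster 3 there were 77 and 28 collagen UMIs, and no member reached 50. In it, 9 members were lower by at least 1 in log2 in both libraries, where 9.85% of all genes were, and 0 were higher (0.125%). Type VI, whose chains are standard products of connective tissue cells, gave only 45 UMIs in WT and 40 in KO over all kept cells. Short-chain genes gave 26 and 12 UMIs.

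Genotypes were then compared. Over all kept cells the median log2 ratio of CPM + 10, KO over WT, was 0.12 for the 19 members, and 0.13 for all 10367 genes with at least 50 UMIs. Only 1 of the 19 was at 1 or above, against 0.357% of all genes, and 0 were at -1 or below (0.27%). That member was Col9a3, with 82.1 CPM in WT and 207 CPM in KO and a log2 ratio of 1.24. Col27a1 was lowest, with 57.0 and 42.9 CPM and a log2 ratio of -0.34. Within cluster 1 the Col9a3 log2 ratio was 0.71. That endocrine-like cluster made up 14.9% of WT and 37.7% of KO cells. In bulk-like sums of this kind, more cells of a type and more RNA per cell cannot be told apart. Among the other named members, Col4a1 had 86.0 and 112 CPM, Col2a1 76.5 and 102 CPM, Col18a1 80.1 and 91.2 CPM, and Col3a1 59.9 and 66.1 CPM.

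**Figure D3:**
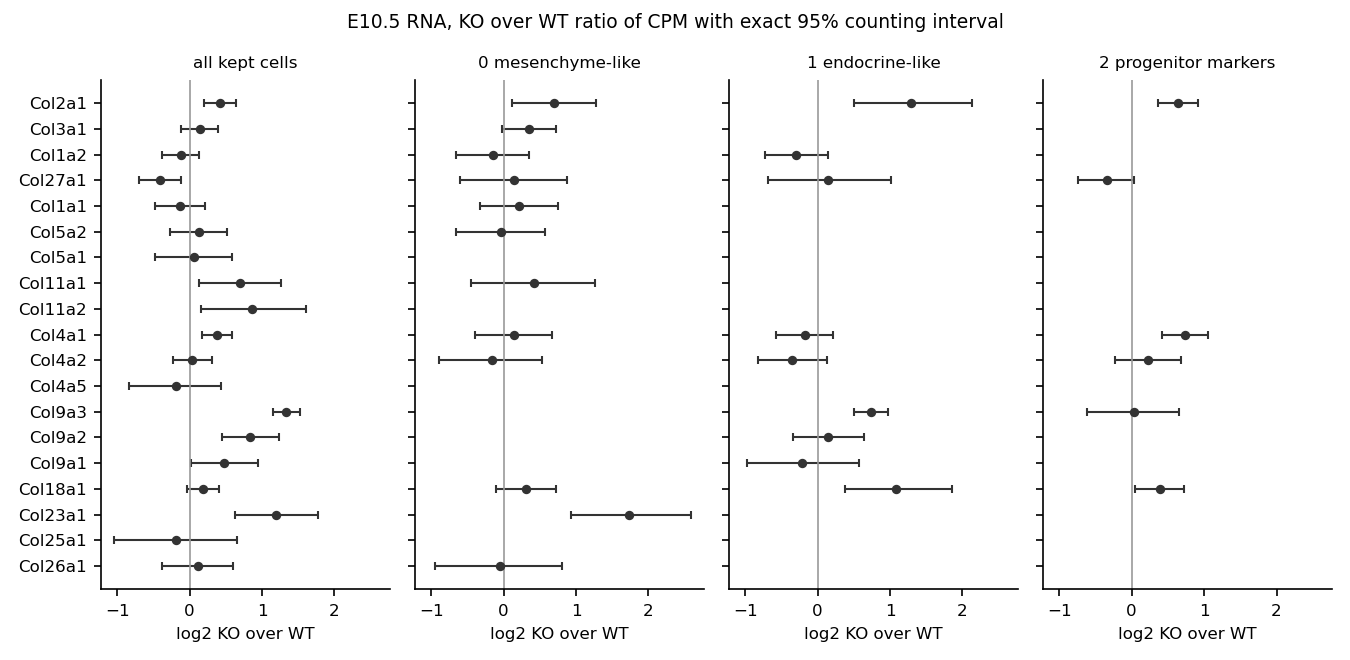
Log2 ratio of CPM, KO over WT and without a pseudocount, for collagen genes with at least 50 UMIs in all kept cells and in clusters 0, 1 and 2. Points are ratios of 1 library to 1 library and bars are exact 95% counting intervals; Col9a3 stands highest over all cells and is nearer to 0 in cluster 1.

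Within cluster 0 the 12 measured members had a median log2 ratio of 0.16, against 0.07 for all genes. Col23a1 was the 1 member at 1 or above (0.455% of all genes), with 20 UMIs in WT and 41 in KO, or 23.3 CPM (14.3 to 36.1) and 77.7 CPM (55.8 to 105), and 0 were at -1 or below (0.269%). Its intervals do not overlap. In the finer cluster without a name Col23a1 was at 21.88 CPM in WT and 91.08 CPM in KO, from 10 and 38 UMIs. In the Barx1-led one it was at 24.96 and 25.22 CPM, from 9 and 3 UMIs. Col4a2 was lowest at -0.14, with 59.5 and 53.1 CPM.

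Within cluster 1 the median of the 9 measured members was 0.10 and that of all genes 0.08. No member was at 1 or above (0.303% of all genes) or at -1 or below (0.197%). Col2a1 was nearest, with 17 UMIs in WT and 75 in KO, 20.5 CPM (11.9 to 32.8) and 49.9 CPM (39.2 to 62.5) and a log2 ratio of 0.97. Col18a1 followed with 21 and 81 UMIs and 0.85, and Col9a3 with 0.71, a ratio of 1.66 (1.42 to 1.95). Col4a2 was lowest at -0.31. With a pseudocount of 1 CPM, Col2a1 and Col18a1 passed 1. Col2a1 was higher in KO in the Neurog3-led cells (34.1 and 116 CPM, from 4 and 38 UMIs) and in the Sct-led cells (23.0 and 54.2 CPM, from 9 and 32 UMIs). In both, the counting intervals of the libraries overlap. It was not higher in KO in the hormone-rich cells (15.8 and 5.12 CPM, from 3 and 2 UMIs). The endocrine markers of cluster 1 were lower in KO, with the sums given above.

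Within cluster 2 the median of 6 members was 0.27, against 0.15 for all genes. None was at 1 or above (1.31%) or at -1 or below (0.686%). Col4a1 was highest at 0.68, a ratio of 1.66 (1.34 to 2.07), followed by Col2a1 at 0.60, a ratio of 1.56 (1.29 to 1.88). Col27a1 was lowest at -0.31, a ratio of 0.79 (0.60 to 1.03). The makeup of this cluster differed between libraries. Of its 200 cells, 93 fell into a progenitor-like finer cluster (56 WT and 39 KO cells in all), 55 into one with Ptf1a and Cpa1 among its leading genes (54 WT and 3 KO) and 50 into a hepatoblast- or biliary-like one (18 WT and 36 KO). The counts by genotype, and the values that follow, are of the whole finer clusters, which hold a few cells from outside cluster 2. Col4a1 was at 88.0 CPM in WT and 92.2 CPM in KO in the progenitor-like cells, and at 160 and 235 CPM in the hepatoblast- or biliary-like cells. Col2a1 was at 138 and 282 CPM in the progenitor-like cells and at 99.1 and 104 CPM in the hepatoblast- or biliary-like cells. The hepatoblast and biliary markers of cluster 2 summed to 1185 CPM in WT and 2813 CPM in KO.

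Cluster 4 had 8 measured members, with a median of -0.10 against 0.09 for all genes, and none at 1 or above (0.945%) or at -1 or below (0.27%). Both chains of type I collagen were lower in KO. Col1a2 was at 154 CPM in WT (117 to 199) and 78.2 CPM in KO (58.2 to 103), and Col1a1 at 131 CPM (97.1 to 172) and 82.8 CPM (62.2 to 108). Col9a3 was highest, with a log2 ratio of 0.51. In cluster 3, where 1.65% of all genes were at 1 or above and 2.47% at -1 or below, 0 members had the 50 UMIs needed.

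Genes that act on collagens were taken from lists on folding, processing, receptors, other basement membrane proteins, collagen-binding matrix proteins and matrix degradation. Over all kept cells 0 members of any list passed a log2 ratio of 1 in either direction. The list medians there were 0.14 for folding and modification (17 of 19 genes measured), 0.28 for processing and crosslinking (5 of 13), 0.03 for receptors (3 of 8), 0.17 for other basement membrane proteins (8 of 15), 0.20 for collagen-binding proteins (7 of 12) and 0.38 for degradation (7 of 9). In cluster 2 the medians were 0.22 (10 measured), 0.97 (3), 0.09 (2), 0.64 (6), 0.79 (2) and 0.73 (4) in the same order. The median of all genes in cluster 2 was 0.15, and 1.31% of them were at 1 or above. Members past 1 there were Pcolce2, which promotes the trimming of procollagen (1.07), Lama1, a laminin chain (1.11), and Fn1, fibronectin (1.35). Fn1 had 208 CPM in WT and 545 CPM in KO. Serpinh1, the collagen chaperone, had 296 and 430 CPM there. Pcolce2 was also among the 10 leading genes of the hepatoblast- or biliary-like finer cluster (18 WT and 36 KO cells). The part of the cluster's differing makeup, given above by its hepatoblast and biliary markers, in these values was not tested. In cluster 1 the 1 gene past 1 was Timp2, an inhibitor of matrix proteases, at 1.10 (0.303% of all genes). In cluster 3 Itgb1, the shared chain of the collagen-binding integrins, was at -1.71 (2.47% of all genes at -1 or below). Clusters 0 and 4 had none past 1 in either direction.

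Accessibility was measured as a gene-level signal that sums to 10000 per cell over all genes, in 838 WT and 700 KO cells at E10.5 and in 2314 WT and 602 KO cells at E13.5. Its size depends on the gene, so it was compared between libraries and cells and not between genes. All 25 members had a signal in enough cells to be compared between whole libraries, the minimum being 10% of cells in either. The 25 collagens summed to a mean of 27.0 per cell in WT and 25.5 in KO at E10.5, and to 25.8 and 18.0 at E13.5. Without the erythroid-like cells described below, the E13.5 sums were 26.9 and 25.8.

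At E10.5 collagen accessibility differed little between genotypes. The median log2 ratio, KO over WT, was -0.13, against -0.0019 for all genes, and 7 of 25 members were above 0. None was at 0.5 or above (0.231% of all genes) or at -0.5 or below (0.414%). Col5a2 was lowest, with a mean signal of 0.363 in WT and 0.285 in KO and a log2 ratio of -0.35. Col1a2 was highest, with 0.548 and 0.653 and a log2 ratio of 0.25. The others below 0 ran from Col3a1 at -0.24, through Col8a1, Col27a1, Col25a1, Col9a3, Col4a1, Col6a2, Col11a1, Col6a3, Col5a1, Col23a1, Col14a1, Col18a1, Col9a1, Col6a1 and Col15a1, to Col2a1. Those above 0 were Col4a5, Col4a2, Col1a1, Col9a2, Col26a1 and Col11a2, the last of them at 0.20. Col9a3 was at 0.582 in WT and 0.506 in KO, while the share of cells with a signal for it was 32.8% in WT and 38.0% in KO.

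Clusters of the E10.5 ATAC cells were named by the same marker lists. Cluster 2 was endocrine-like (62 WT and 65 KO cells), with 9 of 12 markers raised by at least 0.5 in log2. There Col9a3 stood at 0.684 in WT and 1.03 in KO, and 2 of 24 members were at 0.5 or above between genotypes (7.64% of all genes), Col9a3 and Col15a1, a multiplexin. At -0.5 or below were 4 members (8.61%), namely Col5a2, Col6a2, Col11a1 and Col25a1. In the unnamed cluster 0 there was 1 member at -0.5 or below, Col3a1 (0.207%), with 0.235 in WT and 0.163 in KO, and 0 at 0.5 or above (0.146%). The shallow cluster 1 had 2 at 0.5 or above (8.83%), Col1a2 and Col11a2, and 3 at -0.5 or below (10.3%), Col4a1, Col5a1 and Col9a3. Against the other cells of each library 0 members of cluster 2 were higher in both libraries (4.23%), and Col3a1 and Col14a1 were lower (6.47%). Col9a3 was above the other cells there by 0.25 in WT and 1.18 in KO. In cluster 0, the largest of the clusters, Col9a3 was the 1 member lower than in the other cells in both libraries (0.462%), by -0.60 in WT and -0.64 in KO.

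At E13.5 the library of KO cells was different in makeup. An erythroid-like cluster, with 8 of 8 red blood cell markers raised, held 140 WT cells (6.05%) and 273 KO cells (45.3%). In it 23 of 24 measured members were lower than in the other cells in both libraries, where 35.7% of all genes were. Values are therefore given with and without these cells.

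With all cells the median log2 ratio of the 25 members, KO over WT, was -0.45, against -0.03 for all genes. There were 11 members at -0.5 or below, where 16% of all genes were, and 0 at 0.5 or above (9.36%). They were Col2a1, Col4a2, Col6a1, Col9a1, Col9a2, Col9a3, Col14a1, Col15a1, Col18a1, Col26a1 and Col27a1. Col9a2 was lowest, with 0.814 in WT and 0.353 in KO (-1.21), followed by Col9a1 with 0.989 and 0.456 (-1.12). Col3a1 was highest at 0.10. By the share of cells above 0 the median was 0.12, with 0 members lower and 4 higher. No value over all genes is given here for these shares. The median number of genes above 0 per cell was 3454 in WT and 4243 in KO, and its part was not tested.

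Without the erythroid-like cells the median was -0.05, against 0.0014 for all genes, and 1 member was past the threshold on each side. With all cells Col3a1 had been at 0.10, short of the threshold. For Col9a2 the mean was 0.854 in WT and 0.525 in KO, with a ratio of -0.70 in log2 (1.68% of all genes at -0.5 or below). Col3a1 was at 0.140 and 0.221, a log2 ratio of 0.66 (2.1% at 0.5 or above). Between them lay Col9a1 (-0.43), Col18a1, Col9a3 and Col11a2 (-0.28 each), Col26a1 (-0.23), Col4a2 (-0.20) and Col27a1 (-0.18) on the lower side. On the upper side were Col6a2 (0.32), Col1a1 (0.29), Col5a1 (0.26) and Col6a3 (0.21), of which Col1a1 and Col5a1 are fibrillar and the others are type VI chains. Col4a1, Col5a2, Col6a1, Col14a1, Col15a1, Col1a2, Col23a1, Col25a1, Col2a1 and Col8a1 were within 0.1 of 0, and Col11a1 and Col4a5 at -0.17.

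**Figure D4:**
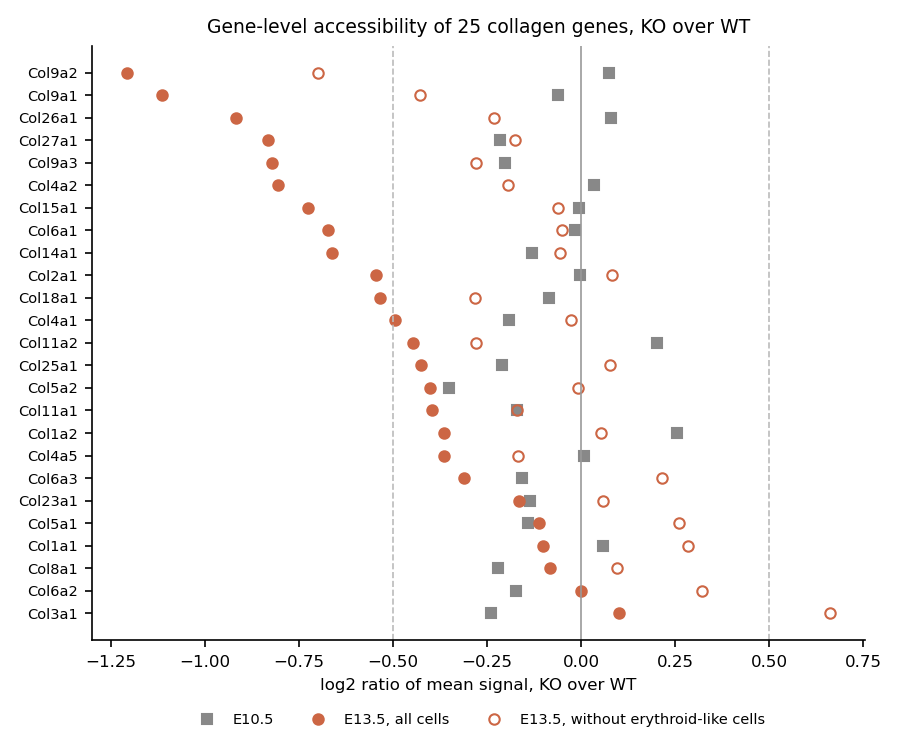
Log2 ratio of mean gene-level ATAC signal, KO over WT, for 25 collagen genes at E10.5 (grey squares), E13.5 with all cells (filled circles) and E13.5 without the erythroid-like cells (open circles). Each point compares 1 library with 1 library, with no error, and dashed lines mark 0.5 and -0.5; 11 filled circles and 1 open circle lie at or below -0.5.

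Within clusters at E13.5 these 2 genes differed. Col3a1 was at 0.139 in WT and 0.241 in KO in cluster 0 (1018 WT and 231 KO cells), where it was above 0 in 13.6% and 34.6% of cells, and was the 1 member at 0.5 or above (1.74% of all genes). None was at -0.5 or below there (1.31%). In the endocrine-like cluster 2 (364 WT and 49 KO cells) Col3a1 was at 0.087 and 0.199. It was not higher in KO in the shallow cluster 1, with 0.166 in WT and 0.151 in KO. Col9a2 stood at 0.689 in WT and 0.603 in KO in cluster 0 (-0.19), but at 0.840 and 0.419 in cluster 2 and at 1.07 and 0.267 in the shallow cluster 1 (792 WT and 49 KO cells). In cluster 2 there were 5 members at 0.5 or above (9.93% of all genes), Col1a2, Col3a1, Col4a1, Col6a2 and Col11a1, and 3 at -0.5 or below (9.93%), Col2a1, Col9a2 and Col11a2. Cluster 1 had 5 (19.5%) and 2 (26.3%), the latter being Col9a1 and Col9a2. Within the erythroid-like cluster 6 of 22 members were at 0.5 or above (10.4%), led by Col4a5 with 0.076 and 0.180, and 0 at -0.5 or below (3.41%). The share of cells with Col9a2 above 0 went the other way without the erythroid-like cells, 25.9% in WT and 35.0% in KO. The median number of genes above 0 per cell was 3454 in WT and 4243 in KO over all cells, and its part in these values was not tested.

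Stages were compared within genotype. Other cells were sampled at the later stage, since E10.5 tissue was progenitor tissue and E13.5 tissue whole pancreas, so stage and tissue cannot be told apart. In WT the median log2 ratio, E13.5 over E10.5, was -0.14, against 0.0052 for all genes. In this comparison 3 members were at 0.5 or above, where 2.96% of all genes were. Col11a2, a type XI chain whose promoter is printed above, was at 0.667 at E10.5 and 1.11 at E13.5 (0.74). Col9a1 was at 0.621 and 0.989 (0.67), and Col9a3 at 0.582 and 0.824 (0.50). Col9a2 was at 0.623 and 0.814 (0.39), short of the threshold. By the share of cells above 0 in place of the mean, 0 members were on the higher side, and Col9a1 was at -0.10 and Col9a3 at -0.0141. No value over all genes is given here for these shares. The median number of genes above 0 per WT cell was 4846 at E10.5 and 3454 at E13.5, and its part was not tested.

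On the lower side were 4 members (4.71%): Col3a1, with 0.227 and 0.134 (-0.77), Col11a1 (-0.64), Col5a2 (-0.53) and Col25a1 (-0.50). The chains of type XI thus lay on opposite sides, Col11a2 above and Col11a1 below. Col2a1 was at 1.66 and 1.55 (-0.10). Without the erythroid-like cells the same 3 genes were on the higher side (2.61%), while Col3a1 (-0.70) and Col11a1 (-0.59) were on the lower (3.92%). The summed signal of the mesenchyme markers was 19.5 at E10.5 and 15.8 at E13.5 in these WT cells, and its part in these values was not tested.

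In KO with all cells the median was -0.56, with 14 members at -0.5 or below (21.4%) and 0 at 0.5 or above (13.4%). Without the erythroid-like cells the median was 0.03, and Col11a1 (-0.60), Col4a5 (-0.59) and Col1a2 (-0.58) were at -0.5 or below (2.56%), with 0 at 0.5 or above (2.64%). Col9a3 was the highest, with 0.506 at E10.5 and 0.709 at E13.5 (0.49), followed by Col9a1 (0.39) and Col11a2 (0.30). Col9a2 had the opposite sign in KO, with 0.656 and 0.525 (-0.32). Col3a1, lower at the later stage in WT, was at 0.193 and 0.221 in KO (0.20). The difference between genotypes in these stage ratios was not tested.

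**Figure D5:**
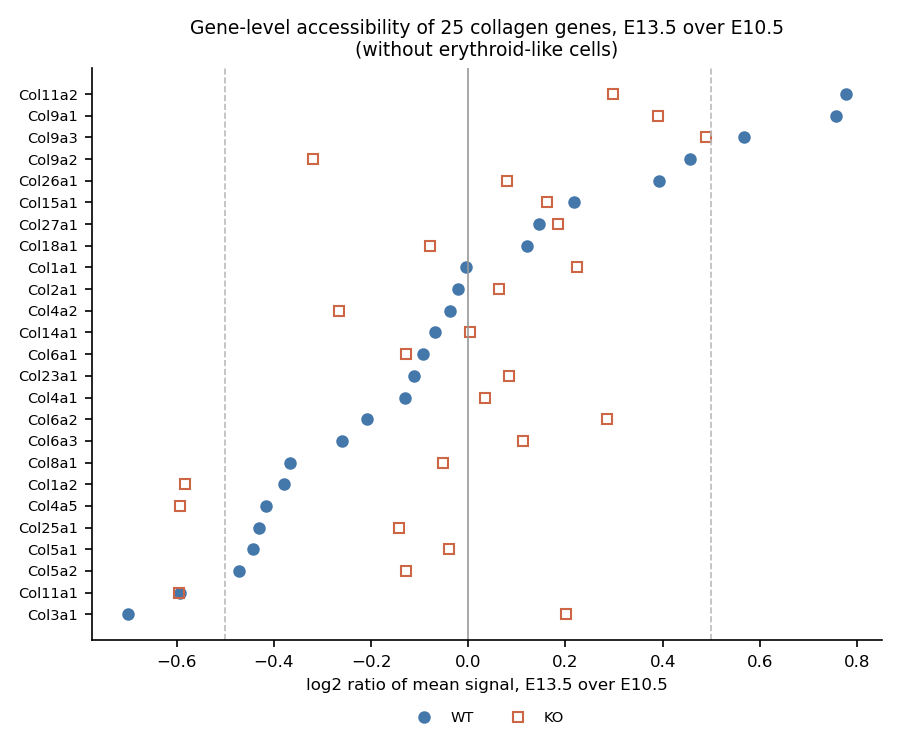
Log2 ratio of mean gene-level ATAC signal, E13.5 over E10.5, without the erythroid-like cells, for 25 collagen genes in WT (filled circles) and KO (open squares), 1 library at each stage and no error. Dashed lines mark 0.5 and -0.5; Col11a2, Col9a1 and Col9a3 are highest in WT, and Col3a1 lies at -0.70 in WT and 0.20 in KO.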

How the data were processed

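The authors deposited single-cell RNA counts (UMIs per gene and barcode, per the file headers) and a gene-level ATAC signal scaled to 10000 per cell, as the deposited values show. The build was mm10, per the submitters' processing notes, and 10x kits were used, per the labels' protocols. For the aligner and for the method of the gene-level signal, the sources used here give no name.

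Cells with at least 1000 genes were clustered without collagen genes (scanpy 1.11.5, leidenalg 0.10.2, 2000 variable genes, 30 components, 15 neighbours, resolution 0.3). The listed genes that act on collagens and the tip and acinar markers were left out as well. Counts were summed per library and cluster, scaled to CPM, and compared as log2(CPM + 10) for genes with at least 50 UMIs over both libraries. ATAC means were compared for genes above 0 in at least 10% of cells of a library. Called doublets (2 of 451 and 8 of 369 cells) were kept. Thinning used 2000 UMIs. With 1 library per group no test was run. On simulated data 199 of 200 changed genes were recovered in RNA and 200 of 200 in ATAC. The ATAC simulation changed only genes with a strong signal, by more than the threshold, and gave both libraries the same cell makeup. It does not cover members with a weak signal, such as Col3a1, and false calls were not counted in it. Intervals are exact and cover counting error only.

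Named genes are the members with the most UMIs, the highest of each cluster, the extremes of each class and those past a threshold, plus others chosen after their values were seen. Members and lists were chosen with earlier results of these data known. Thresholds for cluster names were revised after the clusters were seen: for RNA a mean log2 marker ratio of at least 0.3 and at least 3 markers past 1, for ATAC most markers at 0.5 or above.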

Additional observations from a re-analysis of the deposited data

Results flagged for a closer look

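For 2 genes the accessibility ratio, KO over WT, pointed in opposite directions at the 2 stages. Col3a1 had a log2 ratio of -0.24 at E10.5 and 0.66 at E13.5 without the erythroid-like cells. Col9a2 had 0.07 at E10.5 and -0.70 at E13.5 without those cells. Each ratio rests on 1 library per group, and the difference between stages was not tested.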

How the results depend on the processing

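No paired analysis was possible because each group has 1 library. Of the summary values, 148 were labelled the same, 31 moved and 1 reversed. An ATAC median was the same if it changed by less than 0.1 in log2. For an RNA median the limit was the median half-width of the single-gene counting intervals, and for an RNA level the half-width of its own interval. Counts of members past a threshold followed another rule, a fixed factor between the counts, and equal counts were the same, also where both were 0. Single-gene ATAC ratios were less stable. From shares of cells above 0, 66 of 100 kept their sign, and 77 moved by at least 0.1. Without the erythroid-like cells 54 of 75 kept their sign, and without the cells at each end of genes above 0, 92 of 100 did. The causes were not tested. Without erythroid-like cells the E13.5 KO over WT median was -0.052, with 1 member higher and 1 lower, the KO stage median reversed to 0.035 with 3 lower, and the WT stage had 2 lower. A reversal was counted only for genes whose main ratio was past the threshold. Single genes that reversed were, for the KO stage ratio, Col14a1 (0.0043), Col15a1 (0.16), Col26a1 (0.081), Col27a1 (0.18), Col2a1 (0.063) and Col4a1 (0.035), and for E13.5 KO over WT Col2a1 (0.081). From shares of cells above 0 the KO over WT median was 0.050 at E10.5 and 0.12 at E13.5, with 4 members higher and 0 lower at E13.5, where Col18a1 (0.13) and Col6a1 (0.024) reversed. The WT stage median was -0.35 with 0 higher and 9 lower, and Col9a1 (-0.10) and Col9a3 (-0.0141) reversed. For shares of cells above 0 no values over all genes are given here, and the part of the number of genes above 0 per cell was not tested. Without the 10% of cells at each end of genes above 0, 17 members were lower at E13.5 and the KO stage median was -0.72. In RNA, a pseudocount of 1 CPM gave 2 members higher over all cells and 2 in cluster 1. A minimum of 20 UMIs or none gave 1 lower in cluster 0 and 2 higher in cluster 4, and no minimum gave 1 lower in cluster 4. Over mesenchyme-like cells together 3 members were higher, and 1 at resolution 0.8. Below, progenitor means the cluster whose progenitor markers were highest on average, which at resolution 0.3 is cluster 2, although it was left unnamed. In that cluster 1 member was higher at resolution 0.5 and 0 at 0.3. In KO, progenitor over endocrine was 1.96 and 1.88 for Col27a1 and 2.82 and 2.71 for Col2a1 at resolutions 0.5 and 0.8, against 1.24 and 1.81. Col4a1, progenitor over mesenchyme, was 0.10 and 0.11, and 1.38 when thinned, against 0.76. Col1a2, endocrine over progenitor, was 0.90 when thinned, against 1.70. Thinned medians per cluster were not run, since too few members reached the minimum, and cluster 3 had no member to compare. Depth limits 25 members to under 50 UMIs.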
